A study of Homo sapiens with 12 samples.

Results

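The 40 genes described here are markers and tools of mature monocytes and granulocytes. They were chosen by name, with earlier results of these data known, and matched by symbol to the Ensembl identifiers of the expression table. Of the 40, 39 were found among the 43876 genes of the table, and CD163, a scavenger receptor of macrophages, was not analysed here. They were read in 3 functional groups and a remainder. The surface group held 20 genes for receptors and adhesion molecules, the granule group held 6 genes for stored enzymes, the oxidase group held 4 genes for the superoxide-forming enzyme, and 10 genes belonged to none of these. The cells were MV4-11, an established human acute myeloid leukemia (AML) line that carries an internal tandem duplication in the receptor tyrosine kinase gene FLT3. They were treated for 24 h, and RNA was sequenced from 3 libraries of each of 4 conditions. The control condition received DMSO, the solvent. The Mitoxantrone condition received 20 nM of that topoisomerase II poison, given as a liposome formulation in the study's account and named without the liposome in the sample labels. The Gilteritinib condition received 25 nM of that FLT3 kinase inhibitor. The Combination condition received 20 nM of each drug, so its gilteritinib dose was below that of the single-drug arm. All 12 libraries came from this 1 line, and nothing in the sample labels said whether the 3 libraries of a condition came from separate cultures. The p-values below therefore measure only the spread between these libraries, which may be technical.

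Maturing myeloid cells build their machinery in an order. Promyelocytes fill azurophil granules with myeloperoxidase and the serine proteases neutrophil elastase, cathepsin G, azurocidin and proteinase 3. Later stages carry the beta-2 integrins, which pair an alpha chain such as CD11b (ITGAM) or CD11c (ITGAX) with the shared beta chain CD18 (ITGB2), together with Fc receptors for IgG and receptors for bacterial products. Fc receptors and several other activating receptors signal through the small adaptors FCER1G and TYROBP. The phagocyte NADPH oxidase joins a membrane pair, CYBA and CYBB, with the cytosolic subunits NCF1 and NCF4. The transcription factor PU.1, encoded by SPI1, is a known activator of many of these genes. Cultured AML lines are blocked along this path, and an arrested blast may express some of these genes and not others.

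Promoter sequence was taken from a RefSeq-derived table that held 32 of the 40 genes (build GRCh38.p14), without ITGAX, ITGB2, CSF2RB, CD4, MPO, ELANE, LYZ and NCF4, and the 150 bases before the annotated gene start were searched on both strands. The PU.1 core GAGGAA lay in 18 of these 32 windows (56.2%), against 14.7% of 27305 human promoter windows of the same length. The motif TTNNGCAA, of the CCAAT/enhancer-binding proteins, lay in 4 of 32 (12.5%, against 5.08% of all windows), in AZU1, PRTN3, CD68 and TLR8. The AP-1 motif TGANTCA lay in 1 of 32 (3.12%, against 4.14%), in CD68. A match is only a match of letters, and no match printed here overlaps another. The windows of 7 genes that the results below return to are printed 5′ to 3′ along the strand of the gene, with every motif match in capitals. TTCCTC is the PU.1 core read on the opposite strand.
ITGAM promoter (chr16:31259825-31259974, plus strand): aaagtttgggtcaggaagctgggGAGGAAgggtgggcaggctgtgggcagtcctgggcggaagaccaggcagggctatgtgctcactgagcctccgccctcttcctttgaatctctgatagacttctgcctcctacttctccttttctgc
FCGR1A promoter (chr1:149782544-149782693, plus strand): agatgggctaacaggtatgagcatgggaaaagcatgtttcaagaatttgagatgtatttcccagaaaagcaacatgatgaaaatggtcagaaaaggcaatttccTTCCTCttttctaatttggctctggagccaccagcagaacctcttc
FCGR2A promoter (chr1:161505307-161505456, plus strand): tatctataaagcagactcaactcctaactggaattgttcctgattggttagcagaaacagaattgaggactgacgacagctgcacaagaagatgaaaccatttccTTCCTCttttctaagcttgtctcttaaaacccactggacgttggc
FCER1G promoter (chr1:161215145-161215294, plus strand): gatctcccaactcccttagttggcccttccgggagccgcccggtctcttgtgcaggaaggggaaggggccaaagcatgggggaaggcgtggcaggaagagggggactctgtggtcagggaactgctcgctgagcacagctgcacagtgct
CTSG promoter (chr14:24576251-24576400, minus strand): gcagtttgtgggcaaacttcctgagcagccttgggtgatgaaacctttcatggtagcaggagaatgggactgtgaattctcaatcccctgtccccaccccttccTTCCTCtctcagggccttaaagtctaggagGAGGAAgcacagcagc
NCF1 promoter (chr7:74773861-74774010, plus strand): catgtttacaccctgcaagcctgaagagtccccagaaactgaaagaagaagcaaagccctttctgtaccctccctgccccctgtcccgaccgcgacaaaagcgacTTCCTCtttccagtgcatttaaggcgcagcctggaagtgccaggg
FGR promoter (chr1:27635186-27635335, minus strand): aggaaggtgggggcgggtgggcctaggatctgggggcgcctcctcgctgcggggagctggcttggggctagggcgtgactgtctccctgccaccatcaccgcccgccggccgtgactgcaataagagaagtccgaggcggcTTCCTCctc
The match nearest the gene start was in FGR, 9 bases before it. In FCGR1A, FCGR2A and NCF1 the match began 46, 45 and 45 bases before the start. CTSG held 2 matches, at 46 and 16 bases, and ITGAM held 1 at 127 bases. FCER1G held none of the 3 motifs in this window. SPI1 RNA was present in every library, at no less than 59.8 FPKM (fragments per kilobase of gene length, scaled to a common depth, the unit of all levels below). Its mean was 90.2 FPKM in DMSO, 78.2 in Mitoxantrone, 68.8 in Gilteritinib and 73.4 in Combination, and each drug arm overlapped with DMSO. Any link of the SPI1 level to the levels of the members was not tested.

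The levels of the 39 genes differed widely. A mean over the 12 libraries of at least 10 FPKM was reached by 12 genes, 12 more lay from 1 to under 10, and 15 were under 1. Of those 15, 7 were below 0.1. LYZ, the antibacterial enzyme lysozyme, was the most abundant member with 490 FPKM in the lowest library and 1334 in the highest. It was followed by CYBA (132 to 254) and the adaptor TYROBP (99.2 to 178).

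**Figure D1:**
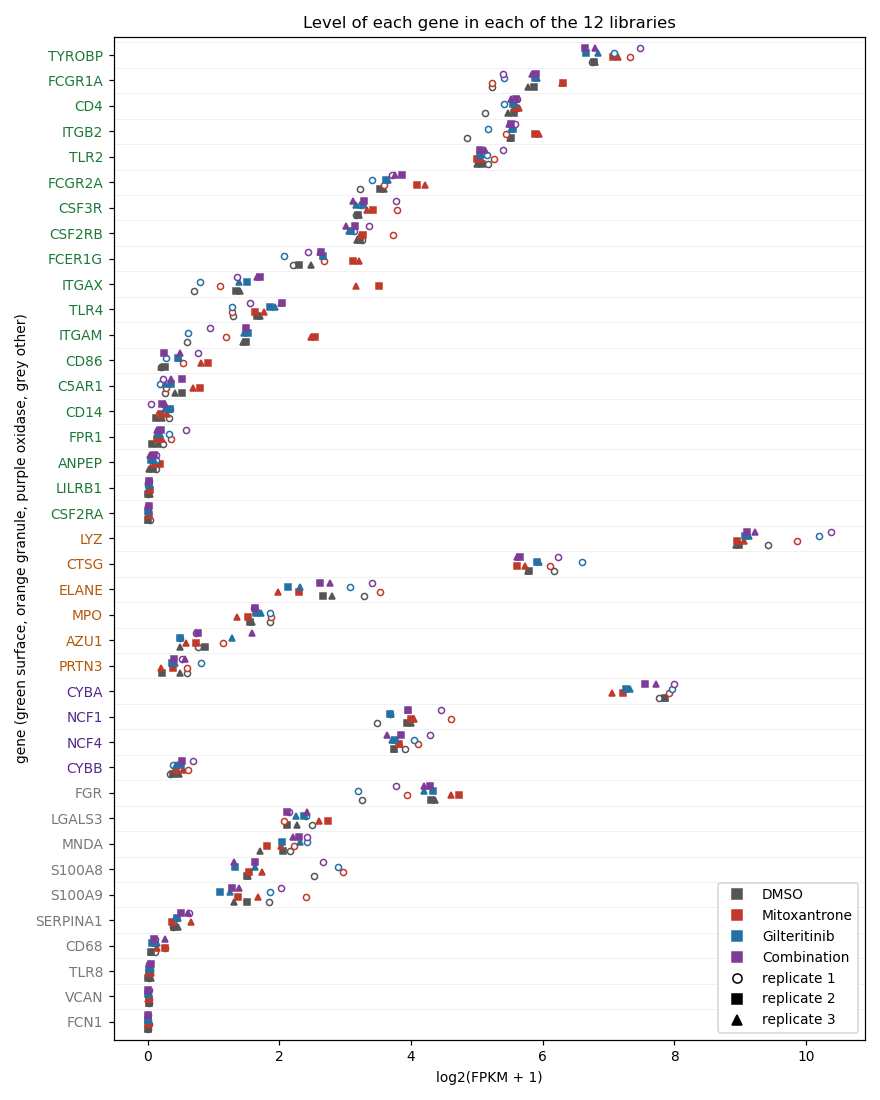
Level of each of the 39 genes in each of the 12 libraries, on the log2(FPKM + 1) scale, with 1 point per library. Color gives the condition and open circles are replicate 1. LYZ, CYBA and TYROBP stand at the right, a tail of 15 genes lies under 1 FPKM on average, and for ITGAM, FGR, LYZ and S100A8 the open circles stand apart from the filled symbols of the same color.

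The 4 oxidase subunits were unevenly present. CYBA, the small membrane subunit, had a mean of 201 FPKM, while its partner CYBB, which carries the catalytic center, lay between 0.260 and 0.605 in all libraries. NCF1 and NCF4, cytosolic organizer subunits, averaged 14.9 and 13.7 FPKM. Thus the RNA of 3 of the 4 subunits was abundant and that of the catalytic one was low in the same cells. NCF1 has near-identical copies in the genome, NCF1B and NCF1C, which were listed at 9.83 to 21.1 and 5.81 to 18.5 FPKM. How reads were divided among the 3 is not given in the sources used here, so the NCF1 level is uncertain.

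The granule genes differed widely in level, with LYZ far above the rest. CTSG (cathepsin G) lay between 47.6 and 96.3 FPKM, ELANE (neutrophil elastase) between 2.92 and 10.6, and MPO (myeloperoxidase) between 1.55 and 2.66. AZU1 (azurocidin) lay between 0.397 and 2.01 and PRTN3 (proteinase 3) between 0.145 and 0.747. ELANE, AZU1 and PRTN3 are neighboring genes, and every ELANE value lay above every value of the other two.

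Among the surface genes, TYROBP, FCGR1A (the high-affinity IgG receptor CD64), CD4, ITGB2, TLR2 and FCGR2A (the IgG receptor CD32) averaged above 10 FPKM. CD4, which monocytes and their precursors carry as well as helper T cells, lay between 33.8 and 48.9 FPKM while the T cell gene CD3D was at 0 in 11 of 12 libraries. CSF3R (9.18 on average), the receptor of G-CSF, and CSF2RB (8.42), the shared beta chain of the GM-CSF receptor, were well expressed. CSF2RA, the alpha chain that binds GM-CSF, was at 0 in 8 of 12 libraries, with at most 2 fragments in any library, a level at which no difference was detectable. CSF2RA lies in a region shared by the X and Y chromosomes, and how reads that fit both were counted is not given in the sources used here, so its low value is uncertain. The pattern recognition receptor TLR4 averaged 2.23 FPKM against 33.9 for TLR2.

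Other surface genes were close to 0, although FCGR1A, ITGB2 and TYROBP, which monocytes also carry, were among the abundant members. CD14, the co-receptor for bacterial lipopolysaccharide, lay between 0.0345 and 0.264 FPKM, FPR1 between 0.0422 and 0.492, C5AR1 between 0.135 and 0.732 and CD86 between 0.143 and 0.892. ANPEP (CD13) averaged 0.0656 FPKM. LILRB1 rested on 2 fragments or fewer in each library. In the remaining group CD68, TLR8, VCAN, FCN1 and SERPINA1 were all under 1 FPKM, and FCN1 was at 0 in 7 libraries. FGR, a SRC-family kinase of myeloid cells, was the highest of this group (8.15 to 25.4). LGALS3, MNDA and the calprotectin genes S100A8 and S100A9 averaged 4.08, 3.45, 3.20 and 2.1 FPKM.

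The cells carried the markers of their line. The summed level of 6 AML blast genes (FLT3, CD33, HOXA9, MEIS1, SPI1 and PTPRC) was 310 to 376 FPKM in DMSO and 313 to 354 under the drugs. The lists for T cells and NK cells summed to at most 0.113 and 0.420 FPKM, and those for eosinophils and mast cells and for epithelium to at most 0.0767 and 0.0894. The lists for megakaryocytes and dendritic cells reached 0.756 and 0.206 FPKM and are given with the Mitoxantrone results. In bulk RNA, fewer cells of a type and less RNA per cell cannot be told apart. Depth recovered from the smallest steps in the FPKM values ran from 31722611 fragments (Mitoxantrone replicate 2) to 41330303 (Gilteritinib replicate 1). A filter of at least 1 FPKM in at least 3 libraries left 18574 genes for testing, and 25 members passed it, being 12 surface, 5 granule, 3 oxidase and 5 other genes. The 14 found but not tested were CD14, CD86, CSF2RA, FPR1, C5AR1, LILRB1, ANPEP, PRTN3, CYBB, CD68, TLR8, VCAN, FCN1 and SERPINA1.

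Replicate number set the members apart more clearly than treatment did. In all 4 conditions, replicate 1 differed from replicates 2 and 3, and the first principal component of all genes, with 42.0% of the variance, separated the 4 libraries numbered 1 from the other 8. S100A8, which with S100A9 forms calprotectin, had the largest such difference of the 25 tested members. Its level in replicates 1, 2 and 3 was 4.76, 1.85 and 1.86 FPKM in DMSO, 6.78, 1.89 and 2.34 in Mitoxantrone, 6.41, 1.52 and 2.1 in Gilteritinib and 5.31, 2.09 and 1.49 in Combination. The 4 libraries numbered 1 lay above the other 8 without overlap. The difference of replicate 1 from the mean of the others was 1.23 ± 0.0996 (SE) on the log2(FPKM + 1) scale (adjusted p = 0.000152, limma with condition in the fit).

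LYZ, CTSG and ELANE, 3 of the 5 tested granule genes, were high in replicate 1. LYZ was at 686, 930, 1176 and 1334 FPKM in the replicate 1 libraries of DMSO, Mitoxantrone, Gilteritinib and Combination. In the other 8 libraries it lay between 490 and 596, so no value overlapped. ELANE differed by 0.88 ± 0.131, LYZ by 0.91 ± 0.107 and CTSG by 0.52 ± 0.0519 on the same log2 scale (adjusted p = 0.00155, 0.000602 and 0.000314). MPO had the same sign with 0.22 ± 0.0839 but an adjusted p of 0.0704. The oxidase subunits CYBA (0.43 ± 0.123) and NCF4 (0.33 ± 0.0640) were also higher in replicate 1 (adjusted p = 0.0239 and 0.00482).

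Surface genes of mature monocytes went the other way. ITGAM was lower in replicate 1 by a log2 difference of -0.91 ± 0.109, ITGAX by -0.97 ± 0.259 and FCGR1A by -0.65 ± 0.0876 (adjusted p = 0.000680, 0.0182 and 0.00102). TLR4, FCER1G, ITGB2 and FCGR2A had differences of -0.48, -0.36, -0.36 and -0.31. FGR, whose product acts downstream of the integrins, had -0.84 ± 0.0938 (adjusted p = 0.000491). Not all surface genes shared the sign, because TYROBP (0.32), CSF2RB (0.22) and TLR2 (0.19) were higher in replicate 1. Over the 25 tested members 10 were higher and 8 lower at an adjusted p under 0.05, where all genes gave 26.3% higher and 12.1% lower. By the F test on the replicate number, 13 of 25 members and 27.9% of all genes passed. Replicates 2 and 3 did not differ at this threshold for any member.

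**Figure D2:**
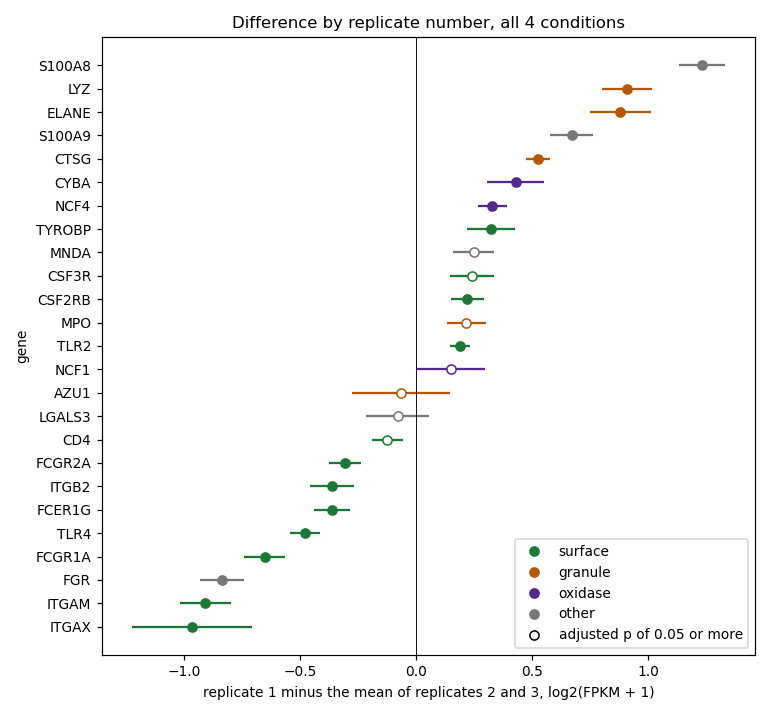
Difference of replicate 1 from the mean of replicates 2 and 3 for the 25 tested genes, fitted over all 4 conditions, in log2(FPKM + 1) with SE bars. Filled points have an adjusted p under 0.05. LYZ, ELANE, CTSG, S100A8 and S100A9 lie to the right, AZU1 lies near 0, and ITGAX, ITGAM, FGR and FCGR1A lie to the left.

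What the number stands for is not in the labels. The deviations of same-numbered libraries from their condition means were positively correlated in all 18 pairs of libraries, and each treatment comparison is also given with the replicate number as a block. Deviations cancel within a condition, so a shift shared by the replicate 1 libraries alone would also correlate replicates 2 and 3. These correlations therefore do not show that replicates 2 and 3 are matched across conditions. For them the block and the same-numbered ratios rest on an assumption. In all 6 comparisons between conditions, 0 of 25 members passed an adjusted p of 0.05 in limma, with or without the block. The same test called 0% of all genes in Mitoxantrone, in Gilteritinib and in each comparison between drug arms, and 0.00538% (1 gene) in Combination against DMSO.

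The question put by Mitoxantrone against DMSO is whether the cytotoxic drug alone moved the differentiation genes. None of the 12 tested surface genes passed an adjusted p of 0.05, and the largest fitted differences among them were those of the integrin chains CD11c and CD11b. TLR2 and TLR4 were near their DMSO levels in every pair, at 0.946 to 1.08 and 0.969 to 1.07 times. ITGAX was at 0.631, 1.54 and 1.64 FPKM in DMSO replicates 1, 2 and 3, and at 1.15, 10.4 and 7.92 in Mitoxantrone. Replicate for replicate this was 1.82, 6.76 and 4.83 times, although the Mitoxantrone replicate 1 library lay below 2 of the DMSO libraries. The fitted difference was 1.44 ± 0.508 (SE, log2 of FPKM + 1; unadjusted p = 0.0166, adjusted p = 0.523). Without Mitoxantrone replicate 1 it was 2.18 (adjusted p = 0.0141), and without Mitoxantrone replicate 2 it was 0.98.

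ITGAM was at 0.503, 1.80 and 1.73 FPKM in DMSO and at 1.28, 4.82 and 4.59 in Mitoxantrone. The ratio was alike in the 3 pairs, 2.54, 2.68 and 2.66. The groups overlapped, because replicate 1 was low in both. The log2 difference was 0.90 ± 0.396 (adjusted p = 0.620), and with the replicate block its SE fell to 0.146 and its adjusted p to 0.0861. ITGB2, the beta chain that both alpha chains need, was at 27.7, 45.1 and 44.4 FPKM in DMSO and 42.3, 57.9 and 60.6 in Mitoxantrone. Its difference was 0.46 ± 0.191 (adjusted p = 0.582).

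FCER1G, the signaling chain of the Fc receptors, had the smallest p of all members. It was at 3.62, 3.94 and 4.57 FPKM in DMSO and 5.42, 7.64 and 8.27 in Mitoxantrone, with no overlap. The difference was 0.67 ± 0.183 (unadjusted p = 0.00380, adjusted p = 0.477, and 0.0861 with the block). FCGR2A also did not overlap, with 8.39, 10.5 and 11.0 FPKM in DMSO and 11.1, 16.0 and 17.5 in Mitoxantrone. Its difference was 0.52 ± 0.155 (adjusted p = 0.492). The share of all tested genes without overlap was not taken, for this or any other comparison. CD4 differed by 0.23 ± 0.102 (adjusted p = 0.626). FCGR2C, a close copy of FCGR2A, was at 0.323 to 0.373 FPKM in DMSO and 0.760 to 2.61 in Mitoxantrone, so reads shared between the copies leave the FCGR2A value uncertain.

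FCGR1A shows how replicate 1 entered. It was at 57.3 and 53.6 FPKM in DMSO replicates 2 and 3 and at 77.9 and 77.8 in Mitoxantrone. In replicate 1 both conditions were alike, at 36.4 and 36.7. Over all libraries its difference was 0.33 with an SE of 0.288, and within replicates 2 and 3 it was 0.48 (adjusted p = 0.00268). FCGR1BP, a related copy, was at 1.5 to 4.15 FPKM in DMSO and 1.5 to 14.9 in Mitoxantrone, low in the same replicate 1 libraries. Reads that fit both copies cannot be assigned with certainty.

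**Figure D3:**
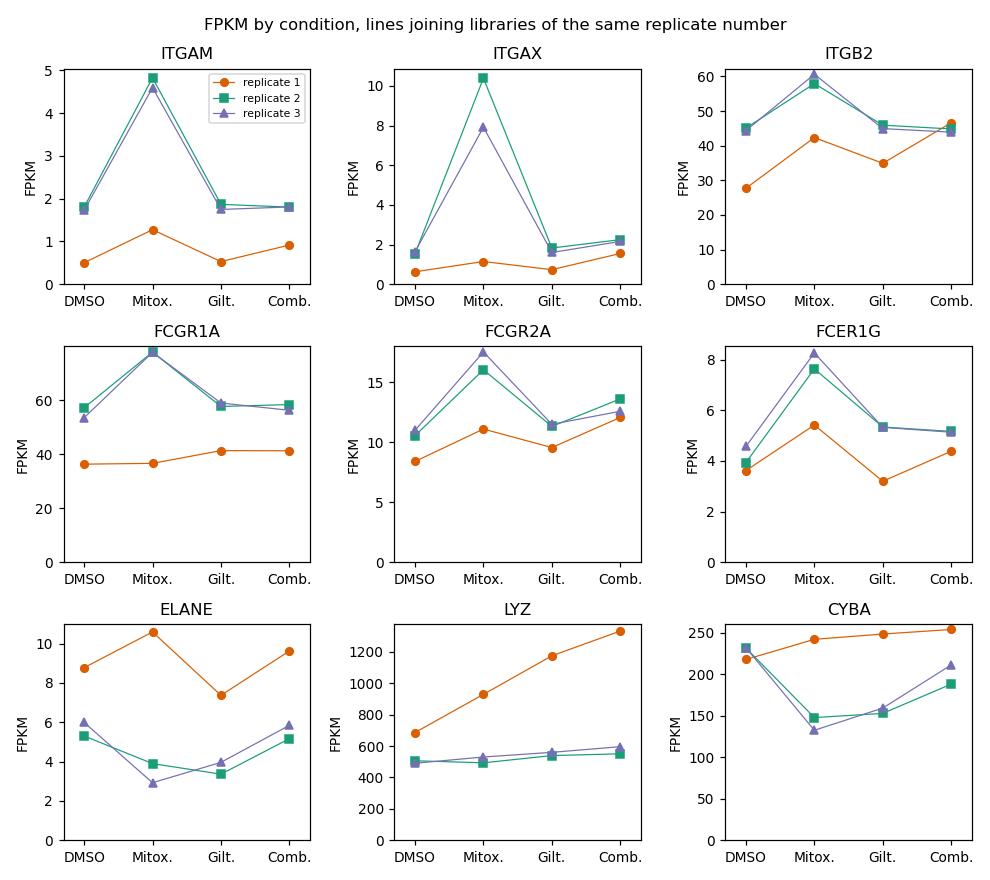
FPKM of 9 genes in the 4 conditions, with lines joining libraries of the same replicate number and each vertical axis starting at 0. ITGAM and ITGAX peak in Mitoxantrone in replicates 2 and 3. Replicate 1 lies lower for both genes, with its ITGAM peak also in Mitoxantrone and its ITGAX peak in Combination. LYZ and ELANE are highest in replicate 1 throughout. CYBA of replicates 2 and 3 falls from about 232 FPKM in DMSO to 148 and 132 in Mitoxantrone, and that of replicate 1 does not.

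Counted over the group, all 12 tested surface genes had a positive fitted difference, with a median of 0.36 (SD over the 3 replicate numbers 0.0754). The median of all tested genes was 0.03, and 57.0% of them were positive. At an unadjusted p under 0.05, 6 of 25 members were higher (ITGAM, ITGAX, ITGB2, FCGR2A, FCER1G and CD4), all of them surface genes, and 0 were lower. All genes gave 4.95% higher and 2.94% lower. Because the members were chosen with earlier results of these data known, these counts describe the list and do not test it. With the replicate block 10 members were higher, against 9.45% of genes, and 1 was lower, against 6.46%. The 4 that the block added to the higher side were TYROBP, CSF3R, FCGR1A and FGR, and the lower one was CYBA.

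The granule genes showed no common shift under Mitoxantrone. Their median difference was -0.08 with 2 of 5 positive. ELANE was at 8.77, 5.30 and 5.99 FPKM in DMSO and 10.6, 3.89 and 2.92 in Mitoxantrone, higher in replicate 1 and lower in the others. Its difference of -0.32 ± 0.395 had the smallest p of the group (unadjusted p = 0.439 in limma). CTSG was lower in each replicate, with ratios of 0.954, 0.881 and 0.960, inside overlapping groups.

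The oxidase subunits split. NCF1 had the smallest p of its group with a difference of 0.42 ± 0.192 (unadjusted p = 0.0545 in limma), and it rested on replicate 1, where the level was 23.3 FPKM against 10.2 in DMSO. In replicates 2 and 3 the ratios were 1.05 and 1.04. CYBA was at 218, 232 and 232 FPKM in DMSO and at 242, 148 and 132 in Mitoxantrone, so only the replicates numbered 2 and 3 were lower. Its difference was -0.43 ± 0.232 over all libraries (unadjusted p = 0.0903, and 0.0271 with the block). Of the remaining genes FGR had the smallest p, with 8.52, 18.7 and 19.6 FPKM in DMSO, 14.4, 25.4 and 23.5 in Mitoxantrone and a difference of 0.46 ± 0.362 (unadjusted p = 0.235, and 0.00553 with the block).

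The same comparison was also fitted on replicates 2 and 3 alone, with 2 libraries per condition. There, 8 of 25 members passed an adjusted p of 0.05, where 6.41% of all genes did. ITGAX rose by 1.96 on the log2 scale (adjusted p = 0.00121), ITGAM by 1.05 (0.00243), FCER1G by 0.77 (0.00573), FCGR2A by 0.59 (0.00546), FCGR1A by 0.48 (0.00268), ITGB2 by 0.40 (0.00301) and FGR by 0.34 (0.0380). CYBA fell by 0.72 (adjusted p = 0.00510). With 1 library per condition, replicate 1 allows no test of its own. Its values went the same way for the 7 genes that rose, with FCGR1A nearly level at 1.01 times, and the opposite way for CYBA at 1.11 times. The median difference of all 25 members in replicate 1 was 0.40, and the share of all genes higher in that pair was not taken. A fit on fragment numbers estimated from the FPKM (limma's voom with the replicate block, 18095 genes) called 4 members, ITGAX, ITGAM, FCER1G and FCGR2A, against 1.57% of genes.

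Some members below the filter had higher values under Mitoxantrone, and these were picked after their values were seen. The share over all genes of such low level was not taken. CD86, the co-stimulatory ligand, was at 0.143, 0.203 and 0.145 FPKM in DMSO and at 0.447, 0.892 and 0.754 in Mitoxantrone, without overlap. Its Gilteritinib values of 0.205, 0.380 and 0.389 also lay above DMSO, and those of Combination overlapped with it. C5AR1, the receptor of the complement fragment C5a, was at 0.203, 0.428 and 0.326 FPKM and at 0.213, 0.732 and 0.614, nearly level in replicate 1 and with overlap. CD68, a lysosomal protein of macrophages, was at 0.0783, 0.0312 and 0.0342 FPKM in DMSO and 0.196, 0.196 and 0.0989 in Mitoxantrone, on at most 14 fragments in any library. CD14 had ratios of 0.477, 1.82 and 1.38 at these low levels, with no common direction. None of these was tested.

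Markers of other blood cells were low but not level between these arms. The 3 megakaryocyte genes summed to 0.279 to 0.327 FPKM in DMSO and 0.474 to 0.756 in Mitoxantrone, and all of it was ITGA2B in the libraries where PF4 (0 in 11 of 12) and GP9 (0 in 9 of 12) were at 0. The 3 dendritic cell genes summed to 0.0231 to 0.086 and 0.149 to 0.193, with CLEC9A at 0 in 10 of 12. Neither list overlapped between the arms, and their part in the surface gene differences was not tested.

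Gilteritinib against DMSO asks what 25 nM of the FLT3 inhibitor did on its own. The integrin genes stayed close to their DMSO levels. ITGAM was at 0.530, 1.87 and 1.75 FPKM, within 1.01 to 1.05 times its DMSO level in each replicate. For ITGAX the ratios were 1.17, 1.19 and 0.978. At an unadjusted p under 0.05, limma found 0 of 25 members, where 0.565% of all genes were higher and 1.30% lower. With the block CTSG, LYZ and MNDA were higher, 3 of 25 against 1.26% of genes, and ELANE was lower, 1 of 25 against 3.70%. The surface median was 0.09 with 11 of 12 positive, against a median of -0.03 and 40.2% positive over all genes. The surface gene with the smallest p was CD4 (0.13 ± 0.102), and the granule gene was ELANE with -0.42 ± 0.395. ELANE was lower in each replicate, at 7.37, 3.36 and 3.96 FPKM, but the groups overlapped. CYBA had the smallest p of the oxidase genes (-0.32 ± 0.232), with 248, 153 and 159 FPKM. In replicates 2 and 3 alone it fell by 0.57 (adjusted p = 0.0385), the single member passing there, where 0.614% of all genes passed. Among the others MNDA, a nuclear protein of myeloid cells, had a difference of 0.28 ± 0.157. LYZ was higher in each replicate, 1.71 times in the first and 1.07 and 1.14 times in the others.

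Combination against DMSO asks the same of both drugs together, and it shares its control libraries with the comparisons above. At an unadjusted p under 0.05, limma found 0 of 25 members, where 0.829% of all genes were higher and 0.840% lower. With the block 4 were higher, FCGR2A, TLR4, LYZ and MNDA, against 2.04% of genes. ITGAX was at 1.55, 2.25 and 2.16 FPKM under the Combination, which was 2.46, 1.46 and 1.32 times DMSO. ITGAM was at 0.917, 1.80 and 1.81, so the ratio was 1.82 in replicate 1 and 1.002 and 1.05 in the others. The surface median was 0.20 with 11 of 12 positive, against a median of -0.01 and 46.0% positive over all genes. By replicate number the surface median was 0.41, 0.02 and 0.07, so replicate 1 had the largest of the 3. FCGR2A had the smallest p of the surface genes, without overlap, at 12.1, 13.6 and 12.6 FPKM against 8.39, 10.5 and 11.0 (0.33 ± 0.155, unadjusted p = 0.0562 in limma, and 0.00591 with the block). MNDA also did not overlap, at 4.32, 3.91 and 3.62 FPKM against 3.48, 3.14 and 2.26 (0.33 ± 0.157). The granule gene with the smallest p was AZU1 (0.32 ± 0.279), with 1 library at 2.01 FPKM and the others between 0.664 and 0.702. NCF1 had 0.32 ± 0.192, again with a ratio of 2.06 in replicate 1 and 1.01 and 0.975 in the others. No member passed in replicates 2 and 3 alone, where 0.0485% of genes did.

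Against Mitoxantrone, the other drug arms had their largest member differences in the integrin alpha chains. In Combination against Mitoxantrone, ITGAM was 0.719, 0.374 and 0.393 times as high and ITGAX 1.35, 0.217 and 0.273 times. FCER1G, at 4.38, 5.17 and 5.14 FPKM, did not overlap with the Mitoxantrone libraries, and its difference of -0.45 ± 0.183 was the only one of a member at an unadjusted p under 0.05 (0.0335). That 1 of 25 compares with 4.12% of all genes. With the block 4 more were lower, ITGAM, ITGAX, CSF2RB and FGR, making 5 against 8.58% of genes, and TLR4 and MNDA were higher, 2 against 3.60%. In replicates 2 and 3 alone 9 members passed, against 6.13% of genes. ITGAX, ITGAM, FCER1G, FCGR1A, FGR, ITGB2, TYROBP and FCGR2A were lower under the Combination, and CYBA was higher by 0.51 (adjusted p = 0.0159). In replicate 1, ITGAM, FCER1G and FGR were also lower and CYBA was also higher. ITGAX, FCGR1A, ITGB2, TYROBP and FCGR2A went the other way there and were higher under the Combination. The surface median of replicates 1, 2 and 3 was 0.12, -0.29 and -0.40. The 5 granule genes all had positive fitted differences in this comparison, with a median of 0.21, but in replicate 1 the median was -0.13. Over all genes the median was -0.04, and 40.5% were positive. Voom with the block called ITGAM (-1.19) and TLR4 (0.44), against 0.768% of genes.

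Gilteritinib against Mitoxantrone set the single drugs side by side. At an unadjusted p under 0.05 in limma, 5 of 25 were lower under Gilteritinib, against 6.56% of genes. These were FCER1G (-0.54 ± 0.183), ITGAX (-1.36 ± 0.508), FCGR2A (-0.41 ± 0.155), NCF1 (-0.53 ± 0.192) and CSF2RB (-0.31 ± 0.133). NCF1 was at 11.8, 11.8 and 11.95 FPKM under Gilteritinib and 23.3, 15.01 and 15.6 under Mitoxantrone, without overlap. With the block 10 were lower, against 12.5% of genes, and CTSG was higher, 1 against 5.45%. In replicates 2 and 3 alone 10 members passed, against 6.63% of genes, with CTSG higher by 0.26 (adjusted p = 0.0264) and the other 9 lower. Voom with the block called ITGAM, ITGAX, FCGR2A, FGR and CTSG, against 4.001% of genes. In Combination against Gilteritinib, 1 member was at an unadjusted p under 0.05, NCF1 with 0.44 ± 0.192 (0.0445), where 0.802% of genes were higher. With the block NCF1 was no longer under 0.05 (unadjusted p = 0.0528), and ELANE and FCGR2A were higher, 2 against 2.48% of genes, and CTSG was lower, 1 against 1.91%.

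Whether the effect of mitoxantrone was the same with gilteritinib present was tested as the interaction, Combination minus Gilteritinib less Mitoxantrone minus DMSO. The gilteritinib doses were not equal, so it is not a sum at matched doses. Of 25 members 0 passed, as did 0% of all genes, and FCER1G was the one at an unadjusted p under 0.05 in limma (-0.58 ± 0.258, 0.0467), where 1.48% of genes were lower. With the block ITGAM, FCER1G and CTSG were lower, 3 against 3.84% of genes, and ELANE and CYBA were higher, 2 against 3.56%. In replicates 2 and 3 alone 7 members passed, against 2.97% of genes. ITGAX (-1.72), ITGAM (-1.05), FCER1G (-0.81), FCGR1A (-0.51) and ITGB2 (-0.43) had a smaller mitoxantrone effect with gilteritinib present. CYBA (1.08) and ELANE (1.08) had values of the opposite sign. In replicate 1, ITGAM, FCER1G, ITGB2 and ELANE kept these signs, and ITGAX and CYBA had the reverse. FCGR1A was nearly level there under mitoxantrone, with and without gilteritinib. In replicate 1, ITGAX was at 0.631 FPKM in DMSO, 1.15 in Mitoxantrone, 0.737 in Gilteritinib and 1.55 in Combination. CYBA was at 218, 242, 248 and 254 FPKM in the same libraries.

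Beside the 40 members stands a wider list of 71 genes of the same 3 functions, of which 70 were found and 40 were tested. It too was chosen with earlier results of these data known. In limma 0 of these 40 passed in any comparison at an adjusted p of 0.05. In Mitoxantrone against DMSO 6 of 40 were higher and 1 lower at an unadjusted p under 0.05, beside 4.95% and 2.94% of all genes. The most abundant were SRGN, the proteoglycan that packs granules (3000 FPKM on average), ITGAL, another integrin alpha chain (208), and RAC2, the GTPase of the oxidase (151). TREM2, a receptor that signals through TYROBP, had the smallest p, with 1.62, 1.23 and 1.11 FPKM in DMSO and 5.02, 3.43 and 3.31 in Mitoxantrone. Its groups did not overlap and its difference was 1.07 ± 0.202 (unadjusted p = 0.000264, adjusted p = 0.340). TLR1, which pairs with TLR2, differed by 0.62 ± 0.170 in Combination against DMSO, and CTSD, a lysosomal protease, by 0.35 ± 0.112 in Mitoxantrone against DMSO. In replicates 2 and 3 alone 9 of the 40 passed in Mitoxantrone against DMSO, beside 6.41% of all genes. None of the 40 passed in Gilteritinib or Combination against DMSO, beside 0.614% and 0.0485%. Against Mitoxantrone, 9 passed for Combination, beside 6.13%, and 12 for Gilteritinib, beside 6.63%.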

How the data were processed

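RNA of MV4-11 cells was sequenced in 12 libraries, 3 for each of 4 conditions, grouped by the sample titles. The authors deposited 1 table of FPKM per gene, already scaled by gene length and library size. The submitters' processing notes name Bowtie 0.12.9, Cufflinks 2.1.1, HTSeq and DESeq2, and the mouse build mm10, although the identifiers are human Ensembl genes. Which tool gave the table is not given in the sources used here, nor is strand use in the counting. Symbols, positions and exon lengths came from GENCODE release 29 and RefSeq tables, with 41461 of 43876 identifiers named.

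The 40 members and the wider list were chosen with earlier results of these data known. limma 3.58.1 in R 4.3.3 was fitted on log2(FPKM + 1) over all 12 libraries for the 18574 genes with at least 1 FPKM in at least 3 libraries, with a mean for each condition, eBayes with a trend in the variance, and p-values adjusted over all genes of a comparison (Benjamini-Hochberg). A fold difference on this scale understates the change of low genes. The test was checked on simulated data. Members were named by level, and a difference with its SE was given where the unadjusted p was under 0.05 and for the smallest p of each group in each comparison with DMSO. Of the wider list, the 3 most abundant genes and the 3 with the smallest p were named. Other genes named in the comparisons, among them CTSG, FCGR1A, CD86 and C5AR1, and the copies, were chosen after their values were seen.

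Depth was recovered from the whole-fragment steps of the FPKM. For the 109 genes found of both lists, a gene length was then searched at which every value under 1000 fragments came out whole. The tolerance was 0.02 fragments, widening to 0.3 at high counts. This held for 26 members, among them ITGAM at 9490 bases against 5688 annotated. The voom fit used the annotated exon length for the other members, among them FCGR2A and CTSG, and for all genes not searched, so those fragment numbers are rougher. The replicate numbers in the titles were treated as pairing the libraries. Deviations of same-numbered libraries from their condition means correlated at 0.165 to 0.657 in all 18 pairs, which a shift shared by replicate 1 alone could give. Correlations between differently numbered libraries were not taken, so the pairing of replicates 2 and 3 is an assumption. The labels do not say what the number marks. Alternatives changed the pseudocount, filter, scaling, libraries and replicate block. The voom fit on estimated fragments was added after seeing the data.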

Additional observations from a re-analysis of the deposited data

Results flagged for a closer look

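ITGAM, the CD11b gene, was the 1 member whose 2 gilteritinib effects had opposite signs in all 3 same-numbered pairs. Without mitoxantrone, Gilteritinib was above DMSO by 0.0274, 0.0659 and 0.0225 FPKM. With mitoxantrone, Combination minus Mitoxantrone was -0.359, -3.02 and -2.79 FPKM. The interaction was -0.789 on the log2(FPKM + 1) scale with an SE of 0.560, and it did not pass the test (limma, adjusted p = 0.9997, and 0.524 with the replicate block). The upward differences were at most 1.05 times, so the opposite sign rests on small values.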

How the results depend on the processing

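The count of members passing an adjusted p of 0.05 was 0 in each comparison between conditions and stayed 0 with a pseudocount of 0.1, without the filter, with a mean FPKM of at least 5, with median-ratio scaling, with only the compared libraries, with voom and no block, and with the replicate block, which gave 0 for Mitoxantrone against DMSO and changed no call at an adjusted p of 0.05. It changed with the libraries used. Replicates 2 and 3 only gave 8 for Mitoxantrone against DMSO, 1 for Gilteritinib against DMSO, 9 for Combination against Mitoxantrone, 10 for Gilteritinib against Mitoxantrone and 7 for the interaction, and 0 for replicate number, where only 1 difference remains to test. Voom with the replicate block gave 4 for Mitoxantrone against DMSO, 2 for Combination against Mitoxantrone and 5 for Gilteritinib against Mitoxantrone. Leaving out 1 library gave 0 to 1 member for Mitoxantrone against DMSO and for Gilteritinib against Mitoxantrone, in both cases ITGAX without Mitoxantrone replicate 1.

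The surface median in Mitoxantrone against DMSO ran from 0.276 to 0.473 when 1 library was left out. In Gilteritinib against DMSO the surface median was 0.144 with median-ratio scaling, 0.0367 in replicates 2 and 3 only, and -0.000756 to 0.215 with 1 library left out, the lowest without DMSO replicate 1. The granule median there was 0.238 at a mean FPKM of at least 5 and 0.0129 to 0.177 with 1 library left out. In Combination against DMSO the granule median ran from -0.0907 to 0.205, and the oxidase median in Mitoxantrone against DMSO from 0.0371 to 0.184. Single genes changed sign in NCF1 for Combination against DMSO (-0.00918 in replicates 2 and 3 only) and CD4 for Gilteritinib against DMSO (-0.000128 to 0.223 with 1 library left out, below 0 without DMSO replicate 1). The cause of these changes was not tested. With 3 libraries per condition, and 2 in the narrower fit, the numbers of libraries limit what can be called, and members under 1 FPKM rest on few fragments.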
